A study of Homo sapiens with 9 samples.

Results

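The genes described here are 10 that mark or control the epithelial state: the classical cadherins CDH1, CDH2 and CDH3, the adhesion molecule EPCAM, the intermediate filament gene VIM, and the transcription factors ZEB1, ZEB2, SNAI1, SNAI2 and TWIST1. They were given as a list of symbols and matched to Ensembl identifiers, and all 10 were found among the 52165 identifiers shared by both count tables. Polyadenylated RNA was sequenced from Kyse150 and TE11, established human lines of esophageal squamous cell carcinoma. The cells carried lentiviral shRNA, directed either at KDM2A, a demethylase of histone H3, or at no named gene (control). Kyse150 has 2 control and 2 KDM2A knockdown libraries, and TE11 has 3 control libraries and 2 whose label is knockdown. The labels name 1 shRNA against KDM2A per line and no rescue, so its other effects cannot be told apart from those of less KDM2A. Nothing says that replicates came from separate cultures beyond the word independent, so the spread behind each p-value may be technical.

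Cadherins hold neighbouring cells together through their outer repeats and bind catenins inside the cell, which link them to actin. In squamous epithelium E-cadherin (CDH1) and P-cadherin (CDH3) are the usual forms, while N-cadherin (CDH2) belongs to neural and mesenchymal cells. During epithelial-mesenchymal transition (EMT), transcription factors of the ZEB, SNAI and TWIST families bind E-box motifs, many of them repressing CDH1 and other epithelial genes. The microRNAs of the miR-200 family and miR-205 in turn bind the 3′ ends of ZEB1 and ZEB2 transcripts.

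The microRNA seeds (bases 2 to 8, in capitals) are shown because they set which transcripts of the group they can pair with. The mature sequences are from RefSeq on GRCh38.p14, and they fall into 3 seed groups.
miR-200b: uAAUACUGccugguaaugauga
miR-200c: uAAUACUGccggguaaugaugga
miR-429: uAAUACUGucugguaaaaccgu
miR-200a: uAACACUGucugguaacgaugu
miR-141: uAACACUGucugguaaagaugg
miR-205: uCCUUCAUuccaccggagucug
The first 3 share the seed AAUACUG, miR-200a and miR-141 share AACACUG, and miR-205 has CCUUCAU.

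In the longest annotated 3′ untranslated region of each gene (GENCODE release 29, transcript strand), the match CAGTATT to the first seed occurred 6 times in ZEB1 and 5 times in ZEB2. SNAI2 held it 1 time and the other 7 genes not at all, while 16.0% of 19133 genes held at least 1 match. As many matches as in ZEB1 were found in 0.016% of genes, and as many as in ZEB2 in 0.037%. The match CAGTGTT to the second seed occurred 3 times in ZEB1 and 4 times in ZEB2, and at least 1 time in 18.3% of all genes. As many of it as in ZEB1 were found in 1.045% of genes, and as many as in ZEB2 in 0.303%. The regions of ZEB1 and ZEB2 are 2549 and 5370 bases long, and none of these shares takes length into account. For miR-205 the match ATGAAGG occurred 1 time each in ZEB1 and CDH3, and in 11.7% of all genes. Below are sites of 25 bases, with the match in capitals and its first base counted from the start of the untranslated region.
ZEB1 at 369: ttttatcttatCAGTATTatcactc
ZEB1 at 1964: ttcatcattatCAGTATTttctttg
ZEB2 at 392: ctaccatacatCAGTATTtttatta
ZEB2 at 455: ctacaatgcatCAGTATTatgattc
ZEB1 at 818, miR-205: tgtggtaacatATGAAGGatatgac
A match is a description of letters, and binding was not measured here.

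Promoter windows of the 250 bases before a RefSeq start were given for 4 of the 10 genes, CDH2, VIM, ZEB1 and ZEB2. They were searched for CACCTG on both strands, the E-box letters that ZEB and SNAI proteins are known to bind. It was present in 17.5% of 35116 such windows, and 2.53% held it 2 or more times. ZEB1 has 7 windows, and so more chances of a match than a gene with 1, and 2 of the 7 held it. The one at chr10:31318966-31319215 (forward strand, GRCh38.p14) held it 2 times, 242 and 85 bases before the start, in capitals here, the second as its reverse complement.
ZEB1: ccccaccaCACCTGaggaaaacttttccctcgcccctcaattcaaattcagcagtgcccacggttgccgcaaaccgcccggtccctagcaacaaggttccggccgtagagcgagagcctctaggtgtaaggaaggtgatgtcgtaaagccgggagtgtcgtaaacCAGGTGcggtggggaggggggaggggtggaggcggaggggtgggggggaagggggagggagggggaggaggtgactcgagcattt
The CDH2 window at chr18:28177131-28177380 (reverse strand) is shown because CDH2 had 0 counts in 6 of 9 libraries. It held no CACCTG, and its GC content was 66.0%.
CDH2: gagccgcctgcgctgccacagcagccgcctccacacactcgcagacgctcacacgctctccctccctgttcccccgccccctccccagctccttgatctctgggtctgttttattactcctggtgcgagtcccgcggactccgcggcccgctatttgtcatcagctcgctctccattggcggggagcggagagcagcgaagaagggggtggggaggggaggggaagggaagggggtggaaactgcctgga
The VIM and ZEB2 windows and the other CDH2 window held none either, and of the other ZEB1 windows 1 held it, 57 bases before the start.

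Counts assigned to genes ranged from 6052883 to 7167055 per library in Kyse150 and from 8457767 to 12073098 in TE11. KDM2A checks the labels. In Kyse150 it fell from 173 ± 1.88 CPM (counts scaled to library size) to 106 ± 1.89 (SD, n = 2 each), or by 0.71 on the log2 scale (SE 0.07; adjusted p by edgeR 3.87e-09). In TE11 it went against the label, at 133 ± 9.44 CPM in libraries that carry the knockdown label (SD, n = 2) against 119 ± 2.06 (SD, n = 3) without it, a log2 difference of 0.16 (SE 0.07; adjusted p by edgeR 0.0335). That call was lost in 7 of 12 alternatives, with adjusted p by edgeR of 0.0772 and 0.0969 when control replicate 2 or 3 was left out and of 0.398 when labelled knockdown replicate 2 was. Across 14964 genes the libraries labelled TE11 knockdown were closer to the Kyse150 controls (r from 0.93 to 0.935) than to those of TE11 (r from 0.805 to 0.807; Pearson r of log2(CPM + 1); genes are not independent replicates). Every TE11 difference below is between the libraries as labelled.

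Squamous markers (10 genes such as KRT5, KRT14 and TP63) were detected in every library, with a summed level of 2490 and 2555 CPM in the Kyse150 controls, 2402 and 2394 in the knockdowns, 4709 to 5228 in the TE11 controls and 2382 to 2426 in the libraries labelled TE11 knockdown. Fibroblast markers summed to 6.37 and 6.70 CPM in the Kyse150 controls, 11.9 and 10.998 in the knockdowns, 27.8 to 30.4 in the TE11 controls and 2.79 to 3.89 in the libraries labelled knockdown. Of those 10 markers, 2 or 3 were at 0 in each TE11 control and 6 to 8 in each other library. Endothelial markers summed to 16.3 and 21.0, 39.9 and 40.3, 68.3 to 76.5 and 12.7 to 12.9 CPM in the same order. Most of each endothelial sum was EGFL7, with means of 15.8, 36.3, 63.0 and 11.2 CPM. Leukocyte markers summed to 2.83 and 2.48 in the Kyse150 controls, 4.77 and 4.85 in the knockdowns and at most 3.12 in TE11, with PTPRC at 0 in every library. Columnar markers (8 genes such as KRT8 and KRT18) summed to 6446 and 6537 CPM in the Kyse150 controls, 7825 and 7259 in the knockdowns, 3583 to 3983 in the TE11 controls and 6141 to 6346 in the libraries labelled knockdown. Of 5 columnar markers tested in TE11, however, 2 were called higher and 3 lower (35.9% and 42.2% of all genes). KRT8 was 2.31-fold and KRT18 1.96-fold higher there, while KRT7 stood at 0.00711 and MUC1 at 0.0106 of control. Of the 10 squamous markers, 2 were called higher and 7 lower in TE11 (35.9% and 42.2% of all genes). COL17A1 was 4.05-fold and PKP1 5.53-fold higher, while KRT5 stood at 0.375 and KRT15 at 0.0321 of control. In Kyse150 the squamous sum was lower and the other 4 sums were higher in both knockdowns than in both controls. Yet 5 of the 10 squamous markers were called higher there and 2 lower (24.8% and 23.3% of all genes). KRT14 rose 2.96-fold, while KRT5 and SFN fell to 0.848 and 0.801 of control. A sum mainly follows its most abundant genes. In TE11 the groups did not overlap in any sum but that of the leukocyte markers. The part of these shifts in the results below was not tested. In bulk RNA, fewer cells of a type and less RNA per cell cannot be told apart.

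**Figure D1:**
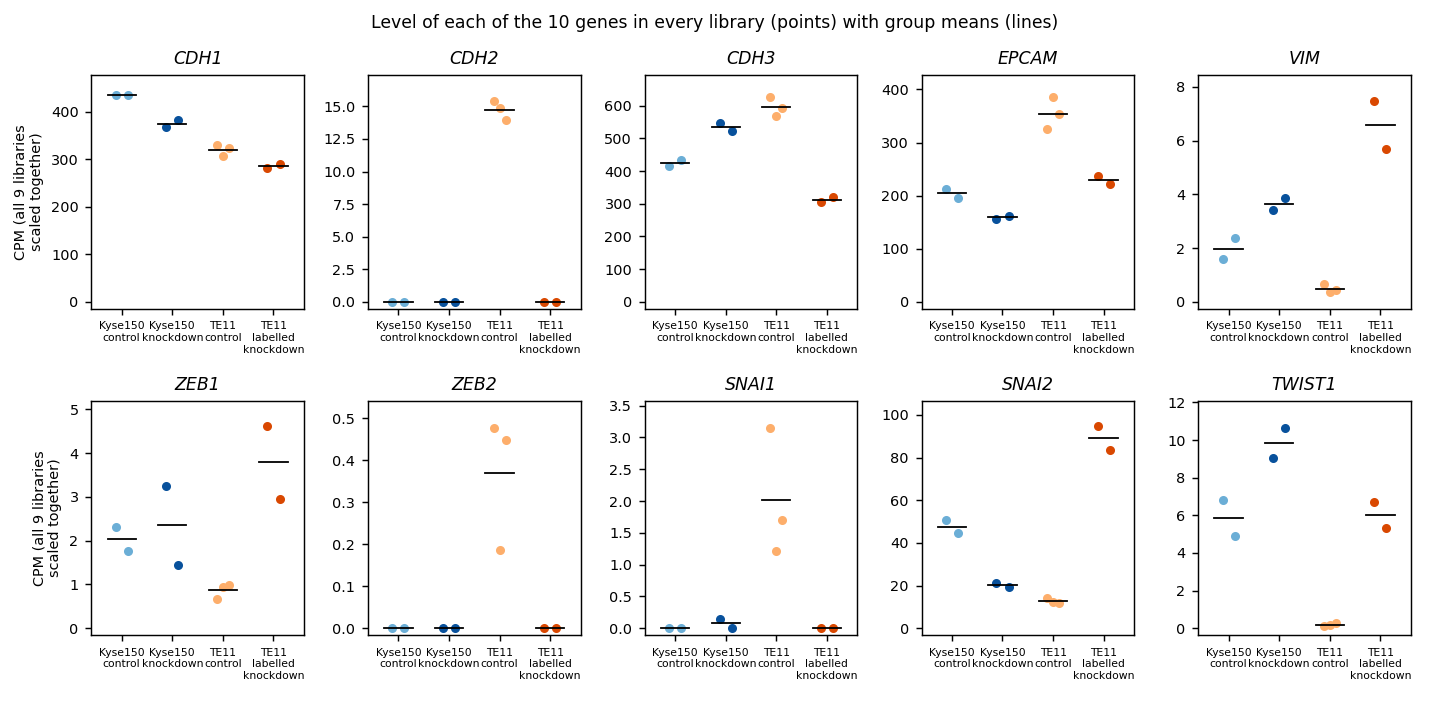
Level of each gene in CPM (vertical axis, from a scaling of all 9 libraries together) by group. Points are libraries and lines are group means; CDH2 and ZEB2 have counts in the 3 TE11 controls alone, while SNAI2 and VIM are highest in the libraries labelled TE11 knockdown.

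In Kyse150 the knockdown libraries had more CDH3 and TWIST1 and less CDH1, EPCAM and SNAI2. The largest of these changes was in SNAI2, which fell to 0.432 of control, and the others lay between 0.796 and 1.72 times control. Of the 10 genes, 7 passed the filter on low counts and 5 of these were called, 2 higher and 3 lower, where 48.2% of all 14060 genes tested were called (24.8% higher and 23.3% lower). CDH2, ZEB2 and SNAI1 had too few counts to be tested.

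CDH1, which encodes E-cadherin, lies at chr16:68737225-68835548 on the forward strand of GRCh38 (GENCODE release 29). Its level was 426 and 428 CPM in the Kyse150 controls against 370.1 and 383 after knockdown. The groups did not overlap, and both knockdowns were lower. CDH1 fell by 0.18 on the log2 scale (SE 0.05; edgeR adjusted p = 0.00748), and without knockdown replicate 1 the call was lost (-0.16, edgeR adjusted p = 0.0731; 7.09e-05 to 0.0731 over the alternatives).

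CDH3, which encodes P-cadherin, ends 14608 bases before CDH1 on the same strand, at chr16:68636189-68722616. The Kyse150 controls had 406 and 427 CPM, the knockdowns 550.4 and 523, with no overlap. CDH3 rose 1.29-fold (log2 0.37, SE 0.05; edgeR adjusted p = 3.41e-06). The neighbouring cadherins thus moved in opposite directions in this line. Per kilobase of exon, CDH3 stood at 0.945 and 0.988 times CDH1 before and at 1.47 and 1.35 times after knockdown, means of 0.966 and 1.41. An exact permutation test over 2 against 2 libraries gave p = 0.333 (two-sided), the smallest it allows.

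EPCAM, an adhesion molecule of epithelial cells, fell in Kyse150 from 208 and 194 CPM to 157 and 163 (log2 -0.33, SE 0.07; edgeR adjusted p = 0.000189). The groups did not overlap. VIM, the intermediate filament gene of mesenchymal cells, was near the limit of detection, at 11 and 16 control counts against 23 and 24 knockdown counts. Both knockdowns were above both controls, but the difference was not called (log2 0.91, SE 0.39; edgeR adjusted p = 0.0504, and 0.0431 to 0.298 over the alternatives, called with upper quartile scaling alone).

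SNAI2, a zinc finger repressor (Slug; chr8:48917604-48921740, reverse strand), had the highest level per kilobase of exon of the 5 transcription factors in Kyse150. It fell from 49.7 and 43.9 CPM among controls to 21.2 and 19.2 after knockdown, by 1.21 on the log2 scale (SE 0.13; edgeR adjusted p = 1.16e-08), called under all 12 alternatives. TWIST1, a basic helix-loop-helix factor, had 47 and 33 control counts and 61 and 66 knockdown counts, with no overlap. It rose 1.72-fold (log2 0.78, SE 0.24; edgeR adjusted p = 0.00884), but this call ended with DESeq2 (adjusted p = 0.105) and when control replicate 2 (log2 0.56; edgeR adjusted p = 0.11) or knockdown replicate 2 (0.66; 0.0657) was left out. ZEB1, a zinc finger and homeodomain repressor, had 16 and 12 control counts and 22 and 9 knockdown counts. Those groups overlapped and the difference was not called (log2 0.25, SE 0.44; edgeR adjusted p = 0.663), and without knockdown replicate 1 its sign turned (-0.47, 0.624). SNAI1 (Snail) had 1 count in all 4 Kyse150 libraries together, and ZEB2 and CDH2 had 0 in each, which allows up to 3 counts.

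In TE11 the libraries labelled knockdown had more VIM, ZEB1, SNAI2 and TWIST1, and less CDH1, CDH3 and EPCAM, than the controls. CDH2 and SNAI1, both detected in every TE11 control, had 0 counts in the libraries labelled knockdown. All 9 tested genes were called, 4 higher and 5 lower, in a comparison that called 78.1% of 16453 genes (35.9% higher and 42.2% lower). CDH2 and SNAI1 passed the filter through the controls alone, and VIM, ZEB1 and TWIST1 through the libraries labelled knockdown alone. For these genes the filter limited the direction in which a call was possible. The median log2 fold change of all genes tested was -0.09.

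CDH2, which encodes N-cadherin (chr18:27950966-28177446, reverse strand), had 161, 159 and 156 counts in the TE11 controls, against 0 in both libraries labelled knockdown. It was also at 0 in all 4 Kyse150 libraries, so 6 of 9 libraries held none. Against a floor of 3 counts over the labelled knockdown group it was at least 80.3-fold lower (edgeR adjusted p = 3.9e-20), and with replicate 1 or 2 of that group left out the bound was 40.9-fold or 38.99-fold. A long noncoding gene read from the opposite strand, AC110015.1, shares 2.75% of the CDH2 exon bases and had 35, 17 and 22 control counts and 0 in each library labelled knockdown.

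CDH1 was lower by a small amount in the labelled TE11 knockdown, at 263 and 273 CPM against 305, 287 and 301 in the controls (log2 -0.15, SE 0.06; edgeR adjusted p = 0.0215). The groups did not overlap, yet the edgeR adjusted p rose to 0.051 when control replicate 3 was left out, to 0.246 (log2 -0.12) and 0.0901 (-0.17) when labelled knockdown replicate 1 or 2 was, and to 0.101 (-0.14) with the replicate number as a block. CDH3 fell further, from 582, 530.4 and 552 CPM to 285 and 301, to 0.528 of control (log2 -0.92, SE 0.06; edgeR adjusted p = 3.46e-18). The ratio of CDH3 to CDH1 per kilobase was 1.89, 1.83 and 1.82 among controls, against 1.07 and 1.09 in the libraries labelled knockdown. An exact permutation test gave p = 0.1 (two-sided), the smallest that 3 against 2 libraries allow. EPCAM fell from 301, 359 and 331 CPM to 221.5 and 209 (log2 -0.62, SE 0.07; edgeR adjusted p = 2.42e-11).

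**Figure D2:**
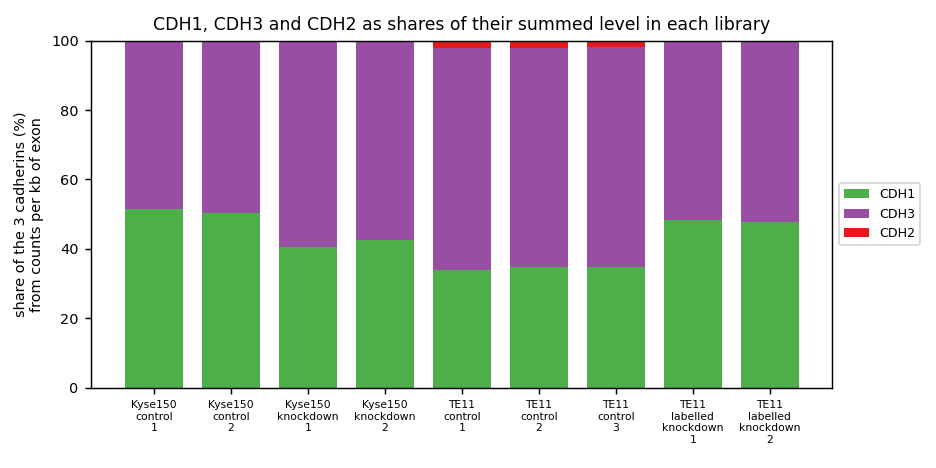
Share (%) of CDH1, CDH3 and CDH2 in their summed counts per kilobase of exon, 1 bar per library. CDH1 takes 50.3% and 51.4% in the Kyse150 controls and 33.9% to 34.8% in the TE11 controls, and CDH2 takes 1.88% to 2.09% in the TE11 controls alone.

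VIM had 7, 4 and 5 counts in the TE11 controls, against 60 and 48 in the libraries labelled knockdown. It rose 13.3-fold (log2 3.74, SE 0.44; edgeR adjusted p = 2.11e-12), from 0.462 ± 0.141 CPM (SD, n = 3) to 6.16 ± 1.16 (SD, n = 2), and per kilobase of exon it stood at 1.28 CPM there, against 46.3 for CDH1. Antisense genes cover 24.4% of the VIM exon bases, the largest share among the 10 genes. Of these, VIM-AS1 had 3, 0 and 5 control counts, against 18 and 12 in the libraries labelled knockdown. Since the strand setting is not given, reads of VIM and of its antisense genes cannot be told apart. The same uncertainty holds for CDH3 over 11.1%, TWIST1 over 6.94%, CDH1 over 5.62%, ZEB2 over 5.18%, ZEB1 over 4.23% and CDH2 over 2.75% of their exon bases.

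SNAI2 had 13.02, 11.3 and 11.1 CPM in the TE11 controls, against 88.3 and 78.4 in the libraries labelled knockdown, a 7.07-fold rise (log2 2.82, SE 0.11; edgeR adjusted p = 8.79e-28). TWIST1 went from 1, 2 and 3 counts to 54 and 45, a 32.6-fold rise (log2 5.03, SE 0.66; edgeR adjusted p = 2.17e-13) that rests on 6 control counts in all. ZEB1 went from 7, 10 and 11 counts to 37 and 25 (4.38-fold, log2 2.13, SE 0.41; edgeR adjusted p = 4.78e-06). In these 3 genes each library labelled knockdown lay above each control. SNAI1 moved the other way, from 33, 13 and 19 counts to 0 and 0, at least 10.97-fold lower (edgeR adjusted p = 9.3e-07). With replicate 1 or 2 of the labelled knockdown left out, that bound was 5.58-fold or 5.33-fold. ZEB2, with 5, 2 and 5 control counts and 0 in each library labelled knockdown, stayed under the count filter and was not tested. The EMT factors thus split in TE11: 3 were higher and SNAI1 was lower in the same libraries.

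**Figure D3:**
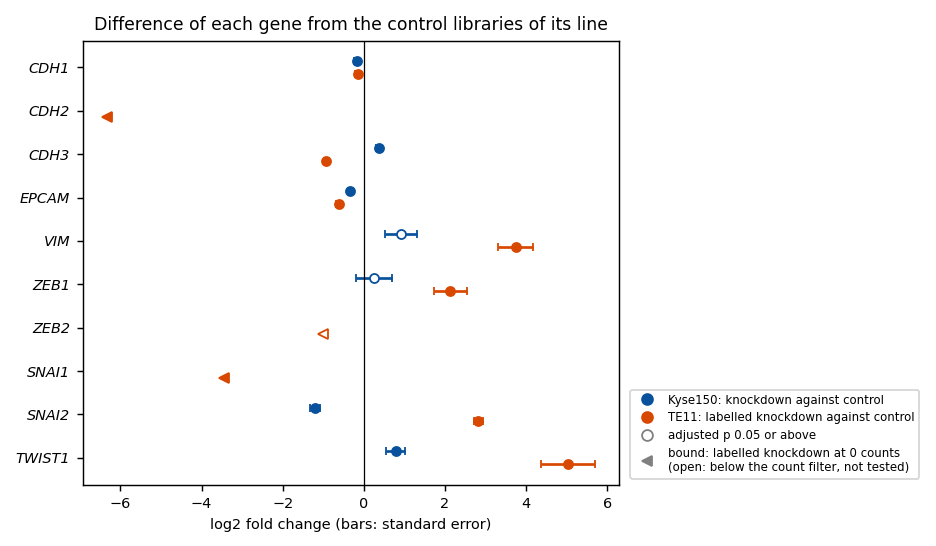
Log2 fold change of each gene against the control libraries of its own line (horizontal axis), with bars for the standard error and triangles for bounds where the libraries labelled knockdown had 0 counts. SNAI2 stands at -1.21 in Kyse150 and 2.82 in TE11, and CDH3 at 0.37 and -0.92.

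Whether the lines differed in these differences was tested in 1 fit of all 9 libraries, in which 66.8% of 15930 genes were called (33.7% higher and 33.1% lower). Of 9 genes tested, 7 were called, 4 higher and 3 lower. SNAI2 had the smallest p, with a difference of 4.06 on the log2 scale (TE11 minus Kyse150; SE 0.17; edgeR adjusted p = 3.09e-33), since it was lower in the Kyse150 knockdowns and higher in the libraries labelled TE11 knockdown. CDH3 had the reverse pattern, with a difference of -1.26 (SE 0.08; edgeR adjusted p = 5.31e-22). TWIST1 differed by 4.27 (SE 0.70; edgeR adjusted p = 3.62e-10) and VIM by 2.85 (SE 0.60; 2.11e-05). Of these, TWIST1 was called higher in both lines and VIM in TE11 alone. ZEB1 differed by 1.90 (SE 0.61; edgeR adjusted p = 0.00486), and by 2.63 without Kyse150 knockdown replicate 1. EPCAM differed by -0.27 (SE 0.10; edgeR adjusted p = 0.0133), a call lost without Kyse150 control replicate 2 (0.115), Kyse150 knockdown replicate 2 (0.0721) or labelled TE11 knockdown replicate 2 (0.0829). SNAI1 was called as well (edgeR adjusted p = 0.0182), but it has groups at 0 and therefore no size. CDH2, at 0 in every Kyse150 library, was tested and not called, and has no size either. CDH2 and SNAI1 passed the filter through the TE11 controls alone, so neither outcome can be read as a difference between responses. For CDH1 the difference was 0.052 (SE 0.084; edgeR adjusted p = 0.617), and -0.068 with upper quartile scaling. The test has the same libraries as the comparisons within each line, so it is no independent evidence.

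The control libraries of the lines differed in all 9 tested genes, 4 higher and 5 lower in TE11, where 79.6% of all genes were called (43.5% higher and 36% lower). Of the 4, CDH2 and SNAI1 passed the filter through the TE11 controls alone, so they could only be called higher. Line, count table and annotation cannot be told apart in that comparison. TE11 controls had 1.74-fold more EPCAM (log2 0.79, SE 0.06) and 1.40-fold more CDH3 (log2 0.49, SE 0.06), and they alone had CDH2 (at least 67.1-fold higher, with a bound of 33.1-fold or 33.9-fold without Kyse150 control replicate 1 or 2) and SNAI1 (at least 9.16-fold higher, 4.52-fold or 4.62-fold without them). They had less CDH1 (log2 -0.44, SE 0.06), VIM (-2.00, SE 0.51), ZEB1 (-1.24, SE 0.46), SNAI2 (-1.91, SE 0.12) and TWIST1 (-4.98, SE 0.65). The ZEB1 call was lost without Kyse150 control replicate 1 (edgeR adjusted p = 0.125). N-cadherin and Snail were thus found in the libraries with the lowest VIM, ZEB1, SNAI2 and TWIST1.

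The libraries labelled TE11 knockdown were also set against the Kyse150 controls, because of the correlations given above. Of 9 genes that passed the filter 5 were called, 3 higher and 2 lower, where 53.8% of all genes were called (27.9% higher and 25.9% lower). The 9 include CDH2 and SNAI1, which passed the filter only through the TE11 controls and could not be called here. CDH1 was lower by 0.60 (SE 0.06) and CDH3 by 0.44 (SE 0.06) on the log2 scale, and SNAI2 (0.90, SE 0.10) and VIM (1.73, SE 0.38) were higher. EPCAM was higher by 0.17 (SE 0.07; edgeR adjusted p = 0.0409), a call lost in 6 of 14 alternatives, among them those without Kyse150 control replicate 2, TE11 control replicate 3 or labelled knockdown replicate 1. TWIST1 differed by 0.041 (SE 0.27; edgeR adjusted p = 0.943), and its sign turned with upper quartile scaling, without Kyse150 control replicate 2 and without labelled knockdown replicate 1. ZEB1 differed by 0.88 (SE 0.41; edgeR adjusted p = 0.061), called without labelled knockdown replicate 2 (0.0361). CDH2, SNAI1 and ZEB2 were at 0 in every library of both groups.

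By the scaling of all 9 libraries together, the order of the groups differed between genes. CDH1 ran from the Kyse150 controls (435 CPM) through the Kyse150 knockdowns (375) and the TE11 controls (319.8) to the libraries labelled TE11 knockdown (286), with no overlap between neighbours. CDH3 ran from the TE11 controls (596) through the Kyse150 knockdowns (534) and controls (424) to the libraries labelled TE11 knockdown (313), again without overlap. SNAI2 ran from the libraries labelled TE11 knockdown (89.0) through the Kyse150 controls (47.6) and knockdowns (20.1) to the TE11 controls (12.7). For ZEB1 the 3 highest groups overlapped, and for TWIST1 the libraries labelled TE11 knockdown (6.03) overlapped the Kyse150 controls (5.84). The libraries with most P-cadherin thus had least SNAI2, and those with least P-cadherin had most. Per kilobase of exon, the Kyse150 controls held EPCAM at 81.1 CPM, CDH1 at 70.4 and CDH3 at 68.0, against 14.0 for SNAI2, 2.87 for TWIST1, 0.384 for VIM and 0.236 for ZEB1.

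The genes whose levels were most like those of 4 members over the 9 libraries were listed by Pearson r of log2(CPM + 1), among about the same 11871 genes. For CDH1 these were ZNF276 (0.991), C1orf159 (0.988) and DANCR (0.987), and for CDH3 CARHSP1 (0.996), SYBU (0.994) and CTDSP2 (0.994). SNAI2 was matched by SF3A3 (0.997) and LDHA (0.996), and VIM by RAC2 (0.988), BCAR3 (0.986) and MT2A (0.985). The 9 libraries form 4 groups, so r mostly follows 4 group means.

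The catenins and other junction partners of cadherins were compared next, as 1 of several lists of pathway genes. In Kyse150, 9 of 17 tested partners rose and 3 fell (median log2 0.18, against 0.00 over all genes, of which 24.8% rose and 23.3% fell). NECTIN4, a nectin of adherens junctions, rose 5.10-fold, NECTIN2 1.502-fold, JUP (plakoglobin, which binds the cadherin tail) 1.40-fold and AFDN (afadin, which ties nectins to actin) 1.31-fold. The 3 that fell became 1 without control replicate 2. In TE11, 3 of 18 were higher and 13 lower in the libraries labelled knockdown (median -0.58, against -0.09 over all genes, of which 35.9% were higher and 42.2% lower). NECTIN4 stood at 0.0498, JUP at 0.352 and AFDN at 0.475 of control, while PTPN14, a phosphatase, was 7.57-fold higher. Among 19 other cadherins, 1 passed the filter on low counts in Kyse150 and 4 in TE11. CDH24 was higher in Kyse150 (1.25-fold), a call lost with DESeq2 and without control replicate 2. It was also higher in the libraries labelled TE11 knockdown (1.28-fold), a call lost without their replicate 2. There CDH8 and CDH5, with only 21 and 16 counts, stood at 0.298 and 0.268 of control. Among the EPCAM partners 6 of 7 rose and 0 fell in Kyse150 (24.8% and 23.3% of all genes), with the tetraspanin CD9 up 1.37-fold while EPCAM itself fell. In TE11 3 were higher and 4 lower (35.9% and 42.2% of all genes), with CD44 2.51-fold higher and CD9 at 0.381 of control.

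Of the other EMT transcription factors, 5 of 10 tested rose and 1 fell in Kyse150 (median 0.25; 24.8% and 23.3% of all genes), and the 5 became 2 with DESeq2. SOX4 rose 1.72-fold, TCF3 (E2A, a partner of TWIST proteins) 1.23-fold and FOXQ1 3.04-fold, and SOX9 fell to 0.36 of control. The FOXQ1 call was lost with DESeq2 and without knockdown replicate 2. In TE11 4 of 14 were higher and 10 lower (median -1.16; 35.9% and 42.2% of all genes): SOX9 was 21.2-fold and ETS1 7.43-fold higher, and FOXQ1 stood at 0.0357 of control. SOX9 thus went down in Kyse150 and up in TE11, as SNAI2 did.

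Factors that maintain the epithelial state include TP63, OVOL1 and the splicing regulators ESRP1 and ESRP2. In Kyse150 8 of 15 rose and 1 fell (median 0.27; 24.8% and 23.3% of all genes). OVOL1 rose 3.82-fold and TP63 1.29-fold, while ESRP2 fell to 0.652 of control. Without control replicate 1, 2 genes of the list fell, and with DESeq2 5 rose. In TE11 3 of 19 were higher and 15 lower (median -1.77; 35.9% and 42.2% of all genes), among them ELF3 at 0.0232, FOXA1 at 0.0416 and EHF at 0.00737 of control. The epithelial junction and membrane genes that EMT factors are known to repress had 16 of 28 higher and 2 lower in Kyse150 (median 0.24; 24.8% and 23.3% of all genes), with CLDN4 up 2.49-fold, CLDN7 2.25-fold and TJP3 3.94-fold. In TE11 8 of 30 were higher and 18 lower (median -0.45; 35.9% and 42.2% of all genes), with MAL2 at 0.0805 and TJP3 at 0.0123 of control and the tight junction gene CLDN1 at 0 counts against 1654 in the controls.

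**Figure D4:**
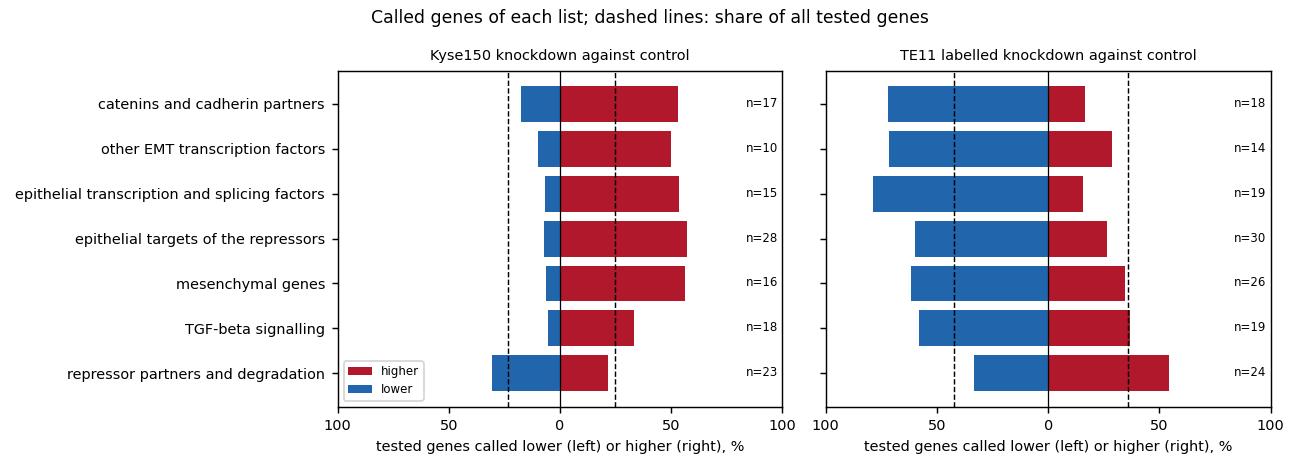
Share of the tested genes of each list (n beside the bars) called lower (left) or higher (right), in %, for each line; dashed lines give the share of all genes tested. In Kyse150 16 of 28 epithelial targets were higher, and in TE11 18 of 30 were lower.

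Among mesenchymal genes 9 of 16 tested rose in Kyse150 and 1 fell (median 0.73), beside 24.8% and 23.3% of all genes. CD44 rose 1.61-fold and the collagen cross-linking enzyme LOXL2 1.84-fold, while the receptor AXL fell to 0.711 of control. Epithelial and mesenchymal lists thus both held more rises than falls in that line. In TE11 9 of 26 were higher and 16 lower (median -1.70), beside 35.9% and 42.2% of all genes. The matrix genes TGFBI and COL5A2 stood at 0.00682 and 0.00502 of control, whereas AXL was 11.8-fold higher. The fibroblast marker sum was higher in the Kyse150 knockdowns and lower in the libraries labelled TE11 knockdown than in the controls of each line, as given above. In Kyse150 this was nearly all COL1A1, which rose 1.72-fold, a call lost with DESeq2 (adjusted p = 0.0764). All fibroblast markers but PDGFRA are also in the mesenchymal list, so that sum is not a separate measure. Its part in these counts was not tested. Of TGF-beta signalling genes 6 of 18 rose in Kyse150 and 1 fell (median -0.05), beside 24.8% and 23.3% of all genes, with TGIF1 up 1.79-fold, SMAD3 up 1.38-fold and TGFBR3 up 5.42-fold (8.64-fold without control replicate 1), and ID3 at 0.631 of control. Without either knockdown replicate, 2 genes of that list fell. In TE11 7 of 19 were higher and 11 lower (median -1.49), beside 35.9% and 42.2% of all genes, among them ID1 at 0.00687 and ID3 at 0.0666 of control.

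Of the genes for proteins that work with the repressors or degrade them, 5 of 23 rose and 7 fell in Kyse150 (median -0.09), beside 24.8% and 23.3% of all genes. HDAC2, a histone deacetylase, fell to 0.678 of control, KDM1A, a histone demethylase that SNAI1 recruits, to 0.816, AJUBA, a corepressor of SNAI proteins, to 0.719 and FBXO45, part of a ubiquitin ligase for EMT factors, to 0.766. Only 3 rose without control replicate 2 or either knockdown replicate. In TE11 13 of 24 were higher and 8 lower (median 0.32), beside 35.9% and 42.2% of all genes, with SUV39H1 2.72-fold, PAK1 2.55-fold and BMI1 2.48-fold higher and KDM1A at 0.399 of control.

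MIR205HG, the host transcript of miR-205, was abundant enough to test in both lines. Its counts were 354 and 359 before and 677 and 602 after knockdown in Kyse150, a 1.94-fold rise (log2 0.95, SE 0.09; edgeR adjusted p = 1.02e-09). The TE11 controls had 790, 767 and 783 MIR205HG counts and the libraries labelled knockdown 104 and 106, a fall to 0.177 of control (log2 -2.50, SE 0.12; edgeR adjusted p = 1.01e-24). The difference between the lines was -3.43 (edgeR adjusted p = 2.24e-32). MIR200CHG, the host of miR-200c and miR-141, had 7, 1, 6 and 3 counts in Kyse150 and was not tested there. In TE11 it had 17, 15 and 16 control counts, against 8 and 5 in the libraries labelled knockdown (log2 -0.90, SE 0.53; edgeR adjusted p = 0.103). Polyadenylated RNA libraries do not measure the mature microRNAs.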

How the data were processed

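The files hold whole-number counts of reads per gene, which the authors deposited unnormalized, 1 table per line. Demultiplexing by bcl2fastq 2.19, alignment by HISAT2 2.1.0, counting by HTSeq 0.9.1 and builds GRCh37.p13 and GRCh38.p13 stand in the submitters' processing notes, beside DESeq2. Which build each table used, and the strand setting, are not given in the sources used here. HTSeq's summary rows, 55.4% to 58.2% of a column, were left out. The tables list 57820 (Kyse150) and 60683 (TE11) identifiers, 52165 in both.

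Each line was tested with edgeR 4.0.16 in R 4.3.3 (filterByExpr with minimum count 10 and minimum total 15, TMM scaling, no covariate, robust quasi-likelihood F tests). A gene was called at an adjusted p (Benjamini-Hochberg, all tested genes) under 0.05. Standard errors come from the fitted model. Comparisons between lines used 1 fit of 9 libraries over shared identifiers, without genes of the mitochondrial genome. Genes at 0 were set against 3 counts over the group, which covers counting error only. Scripts were tested on simulated data. Alternatives were DESeq2 1.42.0, 2 scalings, 2 filters, a replicate block, 1 fit of all libraries, and each library left out; a crossed replicate block and a fit without both libraries labelled TE11 knockdown were added after seeing the data. Genes named from each list are among the 4 with the smallest p in each line; a few of those are not reported here. Members and lists were chosen with earlier results of these data known.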

Additional observations from a re-analysis of the deposited data

Results flagged for a closer look

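The differences between the responses of the lines (libraries labelled TE11 knockdown against control, minus Kyse150 knockdown against control) were picked out because the edgeR test of the difference itself passed the threshold. On the log2 scale they were 4.06 for SNAI2, 4.27 for TWIST1, 2.85 for VIM, 1.90 for ZEB1, -1.26 for CDH3 and -0.27 for EPCAM. For SNAI1, with groups at 0, the edgeR adjusted p was 0.0182, which cannot be read as a difference between responses. This comparison called 66.8% of all genes tested. The libraries labelled TE11 knockdown held no less KDM2A than their controls, so these are differences between the libraries as labelled. Groups of 2 and 3 libraries are too small for a test of single outlying libraries.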

How the results depend on the processing

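Of 596 recomputed values of the 10 genes and KDM2A, 564 kept their direction and side of the threshold, 25 lost the call, 2 gained it and 5 changed sign. Of 1161 values of other named genes, 1140 kept both, 20 lost the call and 1 changed sign. For genes called in Kyse150, 6771 became 4337 with DESeq2. With upper quartile scaling the CDH1 difference between lines was -0.068 and TWIST1 in the libraries labelled TE11 knockdown against the Kyse150 controls was -0.047. With single libraries left out, ZEB1 in Kyse150 ran from -0.47 to 0.70, TWIST1 in the latter comparison from -0.17 to 0.31 and the leukocyte marker CSF1R in TE11 from -0.11 to 0.58 on the log2 scale. That scaling moved the median of all genes in the difference between lines from -0.06 to -0.18. The causes of these shifts were not tested. Same-numbered libraries did not deviate together (r of their deviations -0.149 in Kyse150, 0.000392 and -0.0254 in TE11). In a group of 2 libraries the deviations mirror each other, so these values cannot show whether the numbers pair the libraries. With the replicate block 3301 genes were higher and 3094 lower in Kyse150, 5607 and 6611 in TE11, and 5179 and 5038 in the difference between lines. In Kyse150 the crossed numbers gave 3728 higher and 3644 lower. For comparisons between the groups of different lines the block was not run. VIM, ZEB1, ZEB2, SNAI1 and, in TE11, TWIST1 rest on few counts, which limits their precision.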
